A study of Mus musculus with 4 samples.

Results

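Immature neutrophils of mouse bone marrow were examined as the cells that carried transcripts of the secondary granule proteins Camp and Ngp but none of Retnlg, a gene of later neutrophil stages. A cell was a member when S100a8 and S100a9 together held at least 2% of its UMIs (unique molecular identifiers, which mark captured molecules), Camp and Ngp together held at least 1%, and neither Retnlg nor Csf1r, the receptor that marks monocytes, had a UMI. There were 1952 such cells among 39167 cells, with 502 and 568 in TLR9-/- libraries 1 and 2 and 356 and 526 in WT libraries 1 and 2. The libraries were made from bone marrow mononuclear cells of 2 TLR9-/- and 2 wild-type (WT) mice of the C57BL/6 strain, 1 library per mouse, by 10x sequencing of the 5′ ends of transcripts. No mouse received a treatment according to the labels, which give no age, and the knockout was present in every cell of the TLR9-/- animals. TLR9 is the endosomal receptor for unmethylated CpG DNA, and the comparison of the genotypes asks how marrow cells differ in its absence. The cells came from the interface of a Ficoll gradient, through which most mature granulocytes sink, so the neutrophils measured here are those that stayed at the interface.

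Neutrophils are built in a fixed order. Promyelocytes make the serine proteases and myeloperoxidase of the primary granules, myelocytes and metamyelocytes make the proteins of the secondary granules while division comes to an end, and band and segmented cells make gelatinases, chemokine receptors and cytokine transcripts. Since a granule takes up the proteins made at that time, the granule transcripts of a cell tell how far it has come. C/EBPα drives the first step, and C/EBPε, encoded by Cebpe, is required for the secondary granule program. Camp is the precursor of the antimicrobial cathelicidin, Ngp is a secreted relative of the cystatins, Ltf is lactoferrin, Lcn2 is the siderophore-binding lipocalin 2, Chil3 is a chitinase-like protein, and S100a8 and S100a9 form calprotectin.

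The upstream sequences of the genes that lead this cell type are shown because Cebpe was itself among its leading genes. The letters TTGCNNAA, a version of the C/EBP recognition sequence with 1 complete half-site, were searched on both strands of the 250 bases before the RefSeq start. They were found in 7 of the 16 leading genes that have a promoter window in the RefSeq table (GRCm38.p6), namely Anxa1, Fcnb, Lcn2, Ltf, Ly6g, Ngp and S100a9, which is 43.8%. Of all 27025 genes with a window, 10.8% held them. None of 5 primary granule genes with a window did, which are too few genes to set against that share. The sequences below run from 5′ to 3′ along the gene, and capitals mark every match on either strand. The GENCODE genes can begin further upstream than the RefSeq start. The window of Lcn2 lies inside its GENCODE gene (chr2:32384633-32388252), and so does the Ngp match nearest the start (chr9:110419747-110423012). A match is a string of letters and not a measured binding site, and the leading genes were chosen from these cells, so the shares were not tested.

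Ngp (chr9:110419558-110419807, plus strand, matches starting 138 and 11 bases before the start): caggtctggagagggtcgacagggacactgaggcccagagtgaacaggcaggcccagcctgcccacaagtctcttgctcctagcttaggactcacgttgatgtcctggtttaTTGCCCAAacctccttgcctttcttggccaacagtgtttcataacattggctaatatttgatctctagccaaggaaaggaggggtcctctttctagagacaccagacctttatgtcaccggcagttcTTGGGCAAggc
Ltf (chr9:111019042-111019291, plus strand, match starting 75 bases before the start): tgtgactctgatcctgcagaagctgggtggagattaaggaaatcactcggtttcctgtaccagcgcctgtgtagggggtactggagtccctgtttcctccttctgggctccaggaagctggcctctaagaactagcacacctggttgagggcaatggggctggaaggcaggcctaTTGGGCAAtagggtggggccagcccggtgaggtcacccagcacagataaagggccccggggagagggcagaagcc
Lcn2 (chr2:32387740-32387989, minus strand, match starting 216 bases before the start): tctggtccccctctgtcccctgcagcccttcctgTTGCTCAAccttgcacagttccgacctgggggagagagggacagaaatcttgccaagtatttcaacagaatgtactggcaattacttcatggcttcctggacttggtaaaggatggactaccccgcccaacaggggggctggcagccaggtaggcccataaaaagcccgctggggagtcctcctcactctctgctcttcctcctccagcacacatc
Fcnb (chr2:28084879-28085128, minus strand, matches starting 235 and 123 bases before the start): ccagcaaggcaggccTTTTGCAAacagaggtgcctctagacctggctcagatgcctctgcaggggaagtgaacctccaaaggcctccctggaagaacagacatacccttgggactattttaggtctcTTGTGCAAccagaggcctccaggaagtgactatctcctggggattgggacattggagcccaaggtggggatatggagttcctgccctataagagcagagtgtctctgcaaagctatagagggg
Camp (chr9:109849457-109849706, minus strand, no match): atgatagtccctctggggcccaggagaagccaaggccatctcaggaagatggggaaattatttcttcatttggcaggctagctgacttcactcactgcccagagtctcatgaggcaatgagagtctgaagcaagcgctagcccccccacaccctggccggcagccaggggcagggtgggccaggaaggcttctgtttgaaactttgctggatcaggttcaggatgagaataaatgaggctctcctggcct
Mmp8 (chr9:7558179-7558428, plus strand, match starting 19 bases before the start): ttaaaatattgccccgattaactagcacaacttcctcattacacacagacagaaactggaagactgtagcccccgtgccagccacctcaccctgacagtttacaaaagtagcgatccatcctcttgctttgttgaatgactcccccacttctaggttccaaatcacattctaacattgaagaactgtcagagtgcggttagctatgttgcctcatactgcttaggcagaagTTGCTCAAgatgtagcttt

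Camp is shown as the leading gene without these letters in the window. Mmp8 is not a leading gene, and its window is shown because the gene passed the test between genotypes described further on. Ngp and Fcnb held the letters at more than 1 place.

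The members held between 1723540 and 4914356 UMIs per library, with a median of 5025.5, 5641, 3378 and 6201 UMIs per cell in TLR9-/- libraries 1 and 2 and WT libraries 1 and 2, so WT library 1 was the shallowest. They made up 4.98% of the cells. Over all cells, Tlr9 had 41 and 48 UMIs in TLR9-/- against 120 and 97 in WT libraries, and how much of the 5′ end of the transcript remains in the knockout is not stated in the sources used here. Pairs of libraries shared between 118 and 203 cell barcodes, and at most 1 of these was a member in both. Counting intervals are not given for sums of UMIs, since the spread between mice is larger, and a UMI stands for a molecule rather than a read.

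Markers of the label were present. Camp was found in all members and Ngp in at least 99.6% of them in every library, as the rule demands. Chil3, which the rule did not use, was found in 97.4% to 99.6% of the members, and Fcnb, the ficolin B of the granulocyte granules, in 48.0% to 70.2%. In B cells, defined by at least 3 UMIs of Cd79a and Cd79b, the same 2 genes had a UMI in 3.51% to 8.09% and 0.966% to 2.61% of the cells, at median depths of 1297 to 1862 UMIs. These shares in B cells give the level that free RNA and joint droplets leave in cells that should lack the genes.

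The values that chose the members were well inside the limits in most of them. S100a8 and S100a9 took a median of 35.1% and 31.2% of a cell's UMIs in TLR9-/- and 32.3% and 29.3% in WT libraries. For Camp and Ngp it was 10.4% and 9.84% against 9.65% and 9.75%. Only 80 members had a Camp and Ngp share between 1% and 1.5%, and 67 cells fell just outside with 0.5% to 1%. For S100a8 and S100a9, 22 members had 2% to 3% and 10 cells had 1% to 2%. The limit on Retnlg was the one that cut through cells of the same kind, since 698 cells met every other condition and had exactly 1 Retnlg UMI, and 71 were left out by 1 Csf1r UMI.

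Not every member was free of other transcripts. Cells with at least 2 UMIs of Cd79a and Cd79b, 1 of Cd3d, Cd3e or Cd3g, or more than 1% globin were 13.5% and 12.1% of the TLR9-/- members and 25.3% and 19.96% of the WT members, so they were more frequent in both WT libraries. Cells with over 10% of their UMIs on immunoglobulin genes numbered 1 and 4 in TLR9-/- and 0 and 0 in WT libraries. The share of UMIs outside the rule genes that fell on 7 erythroid markers was 0.434% and 0.148% against 1.28% and 0.283%, highest in WT library 1. Droplets holding more than 1 cell were not removed by a caller, and the part of such cells in each result was not tested beyond the values given beside it.

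The genes that set these cells apart from all other cells of the marrow were those of the secondary granules. Levels here are CPM, a gene's UMIs per 1000000 UMIs of the cells, averaged over the 4 libraries. Ranked by the ratio of CPM in members to that in other cells, the 20 leading genes began with Camp (11.4-fold), Ngp (10.5-fold) and Fcnb (9.08-fold). Lcn2 followed at 11616 CPM in members (8.501-fold), Ltf at 3697 (8.49-fold), and S100a8 and S100a9 at 122860 and 140154 CPM (8.22-fold and 7.86-fold). Cd177, a surface protein of neutrophils, stood at 544 CPM (7.43-fold). Cebpe, the transcription factor of this stage, had 432 CPM (7.27-fold).

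Wfdc21, Chil3 and the peptidoglycan-binding Pglyrp1 came next with 7.16-fold, 7.06-fold and 6.54-fold ratios. The list closed with Lrg1, Adpgk, Anxa1, Ly6g, Rflnb, Trem3 and the leukotriene B4 receptor Ltb4r1, at ratios of 5.97 down to 4.33. Igkv9-120, an antibody light chain segment, also ranked among them, but 8881 of its 8928 UMIs in TLR9-/- library 2 came from 1 cell. These ratios describe the cells that the rule picked and have no test.

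Set against the stages before and after, the members held the secondary granule program, and a minority of them still carried primary granule transcripts. The comparison stages were primary-granule progenitors (at least 1% of UMIs on Mpo, Elane, Prtn3 and Ctsg, under 1% on Camp and Ngp, 1496 cells), intermediate neutrophils (as the members, but with Retnlg, 2689 cells) and mature neutrophils (Camp and Ngp under 1%, with Retnlg and Csf3r, 1399 cells). Ltf went from 5.64 CPM in progenitors to 3697 in the members, 4811 in intermediate and 78.7 in mature cells, as the mean of 4 libraries. Fcnb and Cebpe were highest in the members, at 640 and 432 CPM, against 371 and 370.8 in intermediate and 79.8 and 49.7 in mature cells. Chil3 was likewise higher in the members (5135) than in progenitors (234.5), intermediate (4288) or mature cells (182).

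Summed over cells, the primary granule genes lay between progenitors and intermediate cells. Elane, neutrophil elastase, had 20505 CPM in progenitors, 5762 in the members and 2212 in intermediate cells, and Mpo, myeloperoxidase, had 8281, 1379 and 512. These sums rest on few of the members. Cells with at least 1% of their UMIs on Mpo, Elane, Prtn3 and Ctsg were 17.3% and 14.96% of the TLR9-/- members and 15.4% and 17.5% of the WT members, while the median share was at most 0.0279% in every library. Elane had a UMI in 31.2% to 49.8% of the members. In B cells Elane had between 709 and 4342 CPM, and Mpo between 291 and 2334. For Mpo, the TLR9-/- members had 794 and 2524 CPM beside 819 and 2334 in TLR9-/- B cells. Its summed level in TLR9-/- members was thus that of cells that should lack it. The WT members lay above that level, with 678 and 1520 CPM beside 291 and 681 in WT B cells. An Mpo UMI was found in 23.5% and 21.8% of TLR9-/- members against 7.76% and 10.6% of TLR9-/- B cells. The share was also higher in WT members than in WT B cells. These shares were not at equal depth, since members held more UMIs per cell. In mature cells, the shallowest, Elane and Mpo stood at 4708 and 1552 CPM. Genes of later stages had barely started. Mmp9, gelatinase B, had 4.63 CPM in progenitors, 136 in members, 724 in intermediate and 1231 in mature cells, and Cxcr2, the chemokine receptor of marrow exit, had 20.4 in members and 413 in mature cells.

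**Figure D1:**
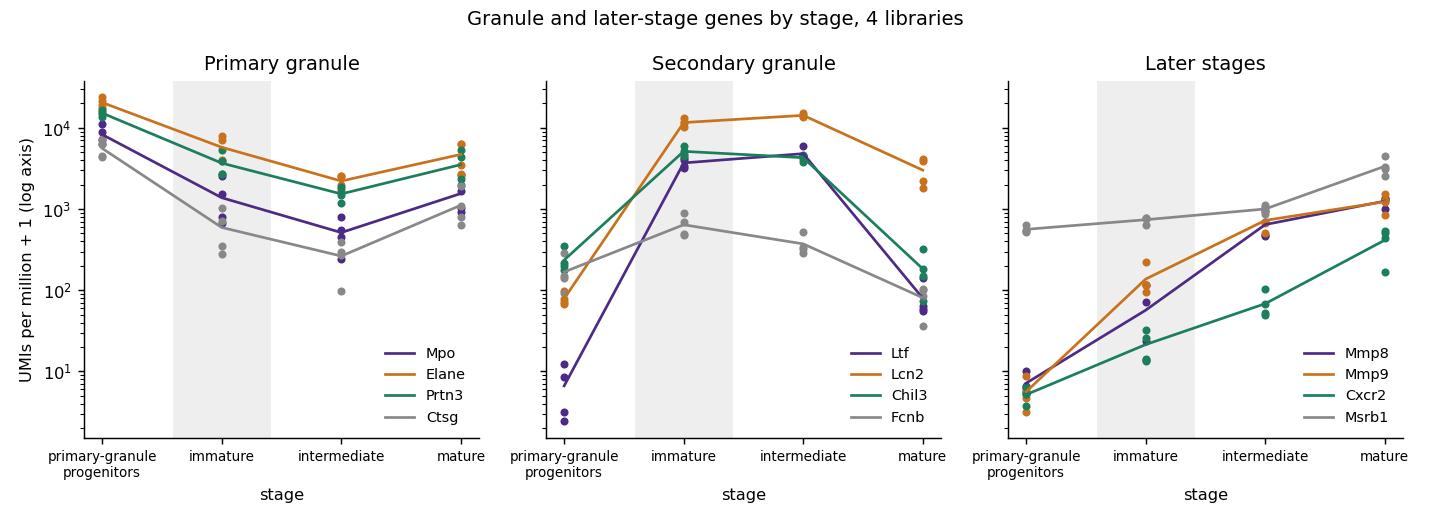
CPM plus 1 (log axis) of granule and later-stage genes in 4 stages, with points for the 4 libraries, lines through their means and the immature neutrophils shaded. Ltf rises from 5.64 in progenitors to 3697 in the immature cells, Elane falls from 20505 to 5762, and Mmp9 climbs to 1231 in mature cells.

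The members also differed among themselves along the same order. They were split by the share of Camp and Ngp into cells with 1% to 5% (344 cells), 5% to 10% (639 cells), 10% to 15% (786 cells) and 15% or more (183 cells), and other genes were given as CPM of the UMIs outside the 6 rule genes. From the lowest to the highest class, Mpo fell from 5027 to 76.7 and Ctsg, cathepsin G, from 2287 to 35.3, as means of 4 libraries. Elane and Prtn3, proteinase 3, fell 15.02-fold and 10.3-fold. All these genes were lower in the highest class in 4 of 4 libraries.

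Secondary granule genes went the other way. Ltf climbed from 721 to 13763, Lcn2 from 2172 to 40415, and Ly6g, the antigen used to gate mouse neutrophils, from 64.4 to 1259, which are 19.1-fold, 18.6-fold and 19.5-fold ratios. Chil3 and Lyz2, lysozyme, were 6.30-fold and 7.72-fold higher, Cd177 9.15-fold, and Cybb, the catalytic subunit of the phagocyte oxidase, 4.11-fold, each in 4 of 4 libraries. Fcnb did not follow them: it had 879 ± 311 in the lowest and 1071 ± 421 in the highest class (SD, n = 4 libraries), higher in 3 of 4 libraries.

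The transcription factors showed the same exchange. Cebpa fell from 36.0 to 2.80 CPM, with 0 UMIs in the highest class of 2 libraries, while Cebpe went from 362 to 913 and Cebpd from 303 to 754. Gfi1, a repressor active in early granulocytes, was 2.33-fold lower. The share of UMIs on endoplasmic reticulum chaperones and translocation genes, which serve protein secretion, fell from 0.611% to 0.236%, and the chaperone Hspa5 was 4.82-fold lower.

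Cells with markers of another lineage made up 39.8% of the lowest class and 5.46% of the highest, ranging from 27.1% to 68.3% across libraries in the lowest. The 8 B cell markers held 0.333% of UMIs outside the rule genes in the lowest class and 0.0493% in the highest, and the 7 erythroid markers 0.852% and 0.0212%. Their part in the trends was not tested. Because Camp and Ngp are rule genes and neutrophil transcripts vary together within a cell, the classes are a description with no test.

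**Figure D2:**
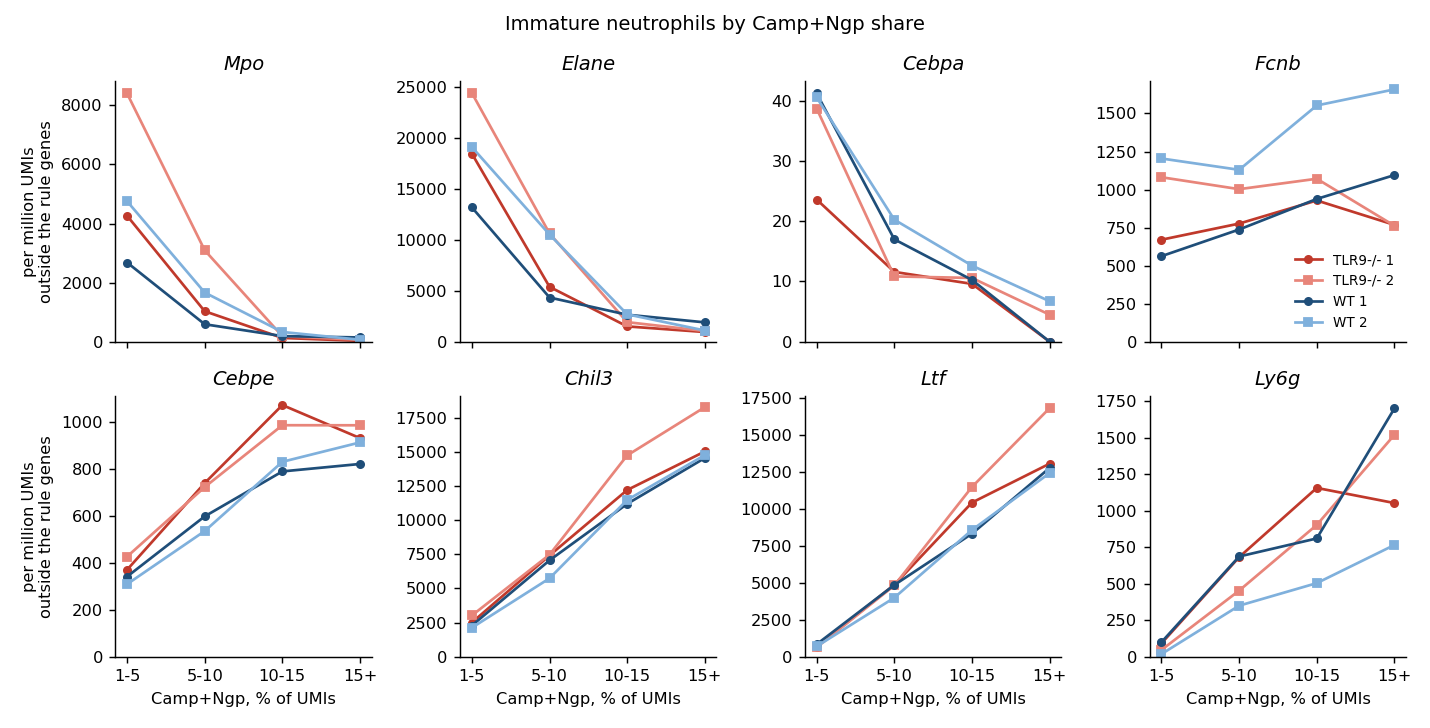
Level of 8 genes, as CPM of the UMIs outside the 6 rule genes, in immature neutrophils split by the Camp and Ngp share of UMIs (x axis, %), with 1 line per library. Mpo, Elane and Cebpa fall, Cebpe, Chil3, Ltf and Ly6g rise and Fcnb ranges from 879 to 1122.

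Many of the members were dividing. Each cell was thinned at random to 1000 UMIs, and a cell with at least 3 UMIs on 25 genes of G2 and mitosis, such as Mki67, Top2a and Ube2c, was counted as cycling. Among TLR9-/- members 45.0% and 38.7% were cycling, and among WT members 40.4% and 48.8%. The unthinned shares were 66.7% and 57.4% against 60.4% and 71.3%. The mean over the 4 libraries was 43.4% in primary-granule progenitors, 43.2% in the members, 22.3% in intermediate and 10.1% in mature cells. In intermediate cells the libraries ranged from 11.1% to 34.0%. Camp and Ngp, under 1% in progenitors by definition, took a median of 9.65% to 10.4% of a member's UMIs. This leaves fewer of the 1000 UMIs for other genes in members. The likeness to progenitors held at 1000 UMIs only. Thinned to 2000 UMIs, 62.6% to 69.3% of progenitors and 50.4% to 60.6% of members were cycling, without overlap, and unthinned 91.6% to 97.0% and 57.4% to 71.3%. S phase counts parted from this, since 43.9% of progenitors but 19.3% of members had at least 3 UMIs on the 20 S phase genes. By genotype the latter were 18.5% and 15.8% in TLR9-/- and 22.0% and 21.1% in WT members, without overlap (exact permutation test, p = 0.33), but at 2000 UMIs they were 41.1% and 34.1% against 39.5% and 44.5%, which overlap.

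The groups overlapped in the members. The cycling share was 41.8% ± 4.50 in TLR9-/- and 44.6% ± 5.91 in WT (SD, n = 2 each, p = 0.67 in a two-sided exact permutation test). With 2 libraries against 2, this test cannot go below 0.33. The sign of the difference turned when cells with less than 5% of Camp and Ngp were left out, or when cells with other-lineage markers were. Cells under 1000 UMIs were dropped, 20 and 17 in the TLR9-/- and 42 and 24 in the WT libraries.

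Cycling was not tied to 1 end of the order. By rising Camp and Ngp class, 60.1%, 33.6%, 41.5% and 51.6% of the members were cycling at 1000 UMIs. These shares are not at equal depth for other genes, since the rule genes fill more of the 1000 UMIs in higher classes. S100a8 and S100a9 alone took 11.5% of UMIs in the lowest and 29.9% in the highest class. As a share of UMIs outside the rule genes, the G2 and mitosis genes went from 0.421% in the lowest to 0.764% in the highest class, and the proliferation marker Mki67 was 1.70-fold higher there, both in 4 of 4 libraries.

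Compared over all members, cycling cells carried more of several early transcripts. Per 1000 UMIs, Elane had 3.74 UMIs in cycling and 2.29 in other members, Mpo 0.859 and 0.539, Fcnb 0.545 and 0.326 and Chil3 6.20 and 4.80, each higher in 4 of 4 libraries. The opposite held for Ltf (3.83 against 5.43), Lcn2 (11.5 against 14.1), Ly6g (0.297 against 0.698) and Cybb (0.868 against 1.25), lower in 4 of 4 libraries. Mmp8, neutrophil collagenase, had 0.0117 against 0.230 UMIs. Camp, a gene of the rule, was near level at 62.7 against 64.2. UMIs on G2 and mitosis genes take a part of the 1000, which lowers the rest of a cycling cell slightly.

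**Figure D3:**
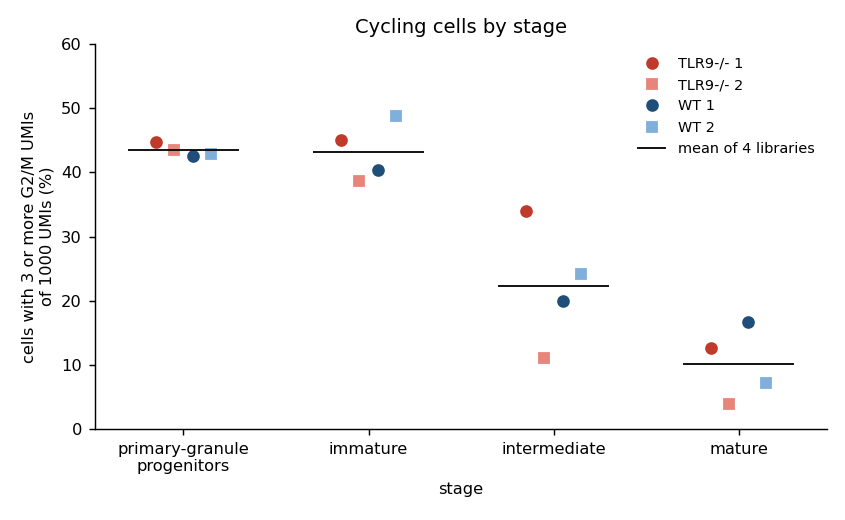
Share of cells (%) with at least 3 G2 and mitosis UMIs after thinning to 1000 UMIs, by stage, with 1 point per library and a line at the mean. At this depth immature neutrophils have a mean of 43.2% and primary-granule progenitors 43.4%, above intermediate (22.3%) and mature cells (10.1%).

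The abundance of immature neutrophils did not separate the genotypes. They were 4.66% and 6.37% of all TLR9-/- cells and 3.37% and 5.91% of all WT cells, so the ranges overlapped. The means were 5.51% ± 1.21 and 4.64% ± 1.80 (SD, n = 2 each, p = 0.67 in the same exact test). As a share of the 3 neutrophil stages the order turned, with 32.1% and 29.4% against 40.1% and 31.8%. The progenitors before them were 5.49% and 4.86% of cells in TLR9-/- and 2.31% and 2.55% in WT, without overlap (exact permutation test, p = 0.33, the smallest possible). A share of cells at the Ficoll interface depends on all other cells there, and it cannot be told apart from a change in those.

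To compare transcripts between genotypes, the UMIs of the members were summed per library and tested in edgeR, 2 libraries against 2. The mice came from 2 experiments, each with a TLR9-/- and a WT mouse, but the labels do not tell which libraries belong together. The test was therefore not paired, and a fit with the library number as a block is given in the closing section. Levels in this comparison are TMM-scaled CPM of the members' UMIs, and adjusted p-values are those of edgeR's quasi-likelihood test with Benjamini-Hochberg adjustment over 9177 genes. Of these genes, 24 were higher and 21 lower in TLR9-/- cells, 45 in all or 0.49% of the genes tested (0.262% higher and 0.229% lower). At an unadjusted p under 0.05 there were 632. The median log2 fold change of all genes was -0.03. The rule genes S100a8, S100a9, Camp, Ngp, Retnlg and Csf1r were not tested.

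Of the genes on the granule lists, only Mmp8 passed the test. Anxa3, a granule gene outside the lists, is given further on. Mmp8 encodes neutrophil collagenase, which is known to cleave fibrillar collagen. By choice of the lists, Mmp8 was counted here with the gelatinase-granule and late granule genes. It had 78.6 and 110 CPM in TLR9-/- libraries 1 and 2 (227 and 573 UMIs) and 22.7 and 12.1 CPM in WT libraries 1 and 2 (39 and 57 UMIs). Both TLR9-/- libraries were above both WT libraries, which is likely for any gene chosen by this test. The log2 fold change was 2.55 with a standard error of 0.29 (adjusted p = 0.0039), or 5.43-fold on the means. The gene lies on chromosome 9 of GRCm38, chr9:7558456-7568485.

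It was spread over many cells. An Mmp8 UMI was found in 15.3% and 26.2% of the TLR9-/- members and in 6.46% and 6.08% of the WT members, against 3.07% and 4.32% and 1.498% and 2.45% of B cells. After thinning every cell to 1000 UMIs, the shares in members were 8.71% and 15.2% against 3.50% and 3.39%. No cell held more than 24 of its UMIs. Without TMM scaling, the WT members had 22.6 and 12.7 CPM beside 20.2 and 20.9 in WT B cells, while the TLR9-/- members had 71.3 and 116.6 CPM beside 20.04 and 42.0 in TLR9-/- B cells. The WT members were thus near the level of cells that should lack the gene.

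The difference was larger in cells without Retnlg. In intermediate neutrophils Mmp8 had 489 and 994 CPM in TLR9-/- and 723 and 484 CPM in WT, which overlap. In one model over both stages with the library as a block, the log2 fold change between genotypes was 2.29 higher in immature than in intermediate cells (SE 0.21, adjusted p = 2.1e-05 over 9627 genes). By Retnlg UMIs per cell, Mmp8 in unscaled CPM in cells with 1 Retnlg UMI were 107 and 126 in TLR9-/- and 110 and 34.4 in WT libraries. By the share of cells with an Mmp8 UMI, the same cells had 23.2% and 32.4% in TLR9-/- and 21.8% and 14.3% in WT. These did not overlap, but by a narrow margin between 23.2% and 21.8%. The cells were not thinned here, and their median depths were 4267 and 6806 UMIs in TLR9-/- and 3330 and 7459.5 in WT libraries. With 2 to 5 Retnlg UMIs the shares overlapped, at 33.7% and 71.1% against 46.2% and 35.6%. In cells with over 5 the levels were 1573 and 1950 against 1816 and 1559. The genotypes thus overlapped in CPM from 1 Retnlg UMI on. In the share of cells, which was not at equal depth, they overlapped from 2 on.

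Within the members, Mmp8 was found mostly in cells out of cycle, in both genotypes. The share of cells with an Mmp8 UMI among cycling cells, at 1000 UMIs, was 0.922% and 2.35% in TLR9-/- and 0 of 127 and 0 of 245 cells in WT libraries, which allows shares of up to 2.36% and 1.22%. Among the others it was 15.1% and 23.4% against 5.88% and 6.61%. The test kept its call under all alternatives but 1: without TLR9-/- library 2 the log2 fold change was 2.27 and the adjusted p 0.105. Adjusted p-values over the 19 alternatives ran from 5.8e-21 to 0.105.

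**Figure D4:**
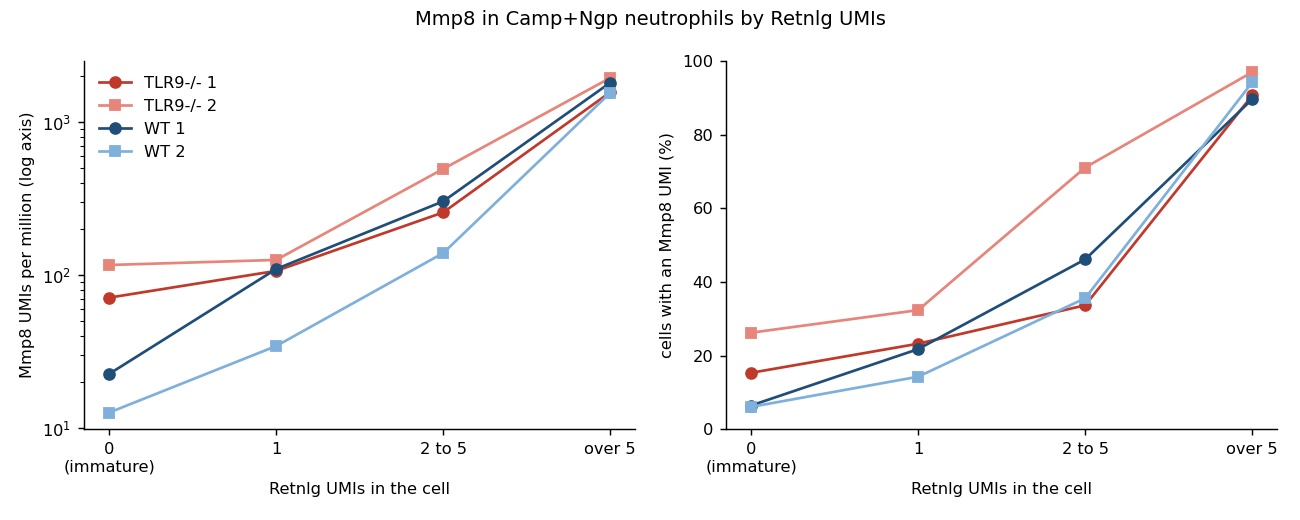
Mmp8 in neutrophils with Camp and Ngp, by the number of Retnlg UMIs in the cell, as unscaled CPM (left, log axis) and as percent of cells with a UMI (right), with 1 line per library. The TLR9-/- libraries lie above both WT libraries in the immature cells without Retnlg (71.3 and 116.6 against 22.6 and 12.7 CPM) and the lines of the genotypes overlap in cells with over 5 UMIs.

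Other genes of late neutrophils did not pass. Of 6 gelatinase-granule and late granule genes tested, 1 rose (Mmp8), none fell, and the median log2 fold change was 0.42 against -0.03 for all genes. Mmp9 had 168 CPM in TLR9-/- and 102 in WT members (log2 fold change 0.73, SE 0.25, adjusted p = 0.49). Of 15 maturation genes (median 0.19), 1 rose, BC100530, a stefin A family gene. It had 14.2 and 21.8 against 4.08 and 2.96 CPM (log2 fold change 2.46, adjusted p = 0.011), with 84 of the 113 UMIs of TLR9-/- library 2 in 1 cell. The other genes of its family are near-identical, so its counts are uncertain.

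Genes of the secondary granule list, which define the stage, were not called, and this list did not hold Mmp8. None of 12 tested passed, and the median log2 fold change was 0.26. Ltf had 4202 CPM in TLR9-/- and 3217 in WT (log2 fold change 0.39, SE 0.23, adjusted p = 0.82), and Lcn2 12676 and 10719 (0.24, SE 0.27, adjusted p = 0.92). As a share of UMIs outside the rule genes, the list held 6.96% and 5.91% in TLR9-/- and 5.81% and 5.22% in WT libraries, which did not overlap (exact permutation test, p = 0.33). The 6 primary granule genes had a median log2 fold change of 0.29, and none passed: Mpo had 1632 and 1066 CPM (adjusted p = 0.84) and Elane 5908 and 5446 (adjusted p = 0.96). The NADPH oxidase genes had a median of 0.16, none of 7 passed, and their UMI share was 0.912% and 0.897% against 0.836% and 0.759% (exact permutation test, p = 0.33). Such separation was not particular to these lists, though most lists overlapped. The transcription factors held 0.282% and 0.281% in TLR9-/- against 0.259% and 0.223% in WT. Ribosomal protein genes lay apart the other way, at 16.1% and 16.7% against 17.0% and 21.1%.

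The regulators and the cell cycle gave no calls. None of 15 transcription factors passed, with Cebpe at 492 and 375 CPM (log2 fold change 0.39, SE 0.21, adjusted p = 0.78) and a list median of 0.0023. None of 20 S phase genes passed (median -0.07), nor did any of 25 G2 and mitosis genes (median 0.07). Of 7 progenitor genes (median -0.43), 1 fell: Sox4, a factor of early progenitors and B cell precursors, had 9.35 and 7.71 CPM in TLR9-/- and 20.99 and 25.8 in WT (log2 fold change -1.50, adjusted p = 0.026). Sox4 was found in 26.7% to 38.6% of B cells and in 3.98% to 11.6% of members. The call was lost without cells bearing markers of other lineages (log2 fold change -0.79, adjusted p = 1.0).

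Pathways tied to TLR9 were measured at low levels. Tlr9 itself had 1 and 0 UMIs in TLR9-/- members and 4 and 0 in WT members, too few for the test. A count of 0 in 526 members allows a share of cells with a UMI of up to 0.570%. Of 12 Toll-like receptor pathway genes tested, none passed (median 0.09), and Unc93b1, the carrier of endosomal receptors, had 98.5 and 94.9 CPM (adjusted p = 0.97). None of 18 interferon-stimulated genes passed (median -0.34). Their UMI share was 0.135% and 0.141% in TLR9-/- and 0.235% and 0.0907% in WT libraries, so the WT libraries lay on both sides.

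Inflammatory and stress genes also had no calls in the members. None of 10 NF-kappaB genes passed (median 0.01), with Nfkbia at 149 and 154 CPM (adjusted p = 0.98). Early response genes had a median of 0.44 with none of 12 passing. Of these, 10 had a positive log2 fold change and 2 an unadjusted p under 0.05. Jund went against the lean of its list, with 53.7 and 20.4 CPM in TLR9-/- and 78.1 and 51.5 in WT libraries, which overlap (adjusted p = 0.72). None of 8 heat shock genes (median 0.04) and none of 16 endoplasmic reticulum genes passed, the latter with a median of 0.30 and 5 at an unadjusted p under 0.05.

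The genes that did pass were mostly outside these lists. The largest differences were genes present in one genotype alone. BC018473, annotated as an antisense RNA (chr11:116752167-116759373), had 445 and 489 CPM in the TLR9-/- libraries (1284 and 2537 UMIs) and 0 UMIs in both WT libraries. With a floor of 3 UMIs over both WT libraries together, and UMIs pooled by genotype, this is at least 1015-fold higher (adjusted p = 1.0e-06). It was found in 62.5% and 66.0% of members, and in 9.29% and 17.0% of B cells in the same libraries, with 0% in WT B cells. Gm6594, a processed pseudogene whose reads can come from its parent gene, had 211 and 260 CPM against 0 UMIs, by the same floor at least 520-fold higher (adjusted p = 1.0e-06). In all, 7 genes had no UMI in either WT library and 2 none in either TLR9-/- library.

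The reverse held for Gm34084, a long intergenic RNA on chromosome 13 (chr13:44472426-44504548). It had 60.6 and 64.4 CPM in WT members (104 and 304 UMIs) and 1 UMI in each TLR9-/- library (log2 fold change -7.79, adjusted p = 1.0e-06). It was found in 21.3% and 34.8% of WT members and in 0.473% and 1.96% of WT B cells. The neighbouring genes Trim34a, Trim5 and Trim12a on chromosome 7, chosen after their values were seen, were all lower: Trim12a (chr7:104299894-104315466) had 2 and 1 UMIs in TLR9-/- against 38 and 82 in WT (log2 fold change -5.56, adjusted p = 0.00047). These belong to a family of near-identical copies, so counts of single members are uncertain.

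Among genes expressed in both genotypes, 5 more were named by the rule as higher. Ocel1 had 64.1 and 60.7 CPM against 18.1 and 16.7 (log2 fold change 1.85, SE 0.20, adjusted p = 0.0030). Wdfy1, an endosomal adaptor of TLR3 and TLR4 signalling, had 34.3 and 35.5 against 4.08 and 9.53 CPM (log2 fold change 2.18, adjusted p = 0.0092), and the protease inhibitor Serpine2, close by on chromosome 1, had 42.2 and 37.8 against 16.3 and 14.8 (1.37, adjusted p = 0.016). Adat2, a tRNA deaminase subunit, had 29.8 and 38.0 against 11.1 and 8.68 CPM (1.84, adjusted p = 0.0092). Cap1, an actin regulator, was the most abundant of them with 201 and 264 against 90.4 and 91.3 CPM (1.36, SE 0.21, adjusted p = 0.015). The libraries of the genotypes lay apart for all 5. The genes were chosen by the test and by a shared direction, so this adds no support. All 5 were also split by genotype in B cells, by the share of cells with a UMI. For Ocel1 this share was 20.4% and 27.7% in TLR9-/- against 6.58% and 8.19% in WT B cells. For Cap1 it was 28.9% and 40.9% against 14.98% and 23.4%, and the shares of Wdfy1, Adat2 and Serpine2 lay apart the same way. How large a part of all genes lies apart in B cells in this way was not counted. The B cells were not thinned, and their median depths were 1428 and 1862 UMIs in TLR9-/- and 1297 and 1639 in WT libraries. Whether the differences in the members are particular to immature neutrophils was not tested. Serpine2 lost the call in 7 and Cap1 in 4 of 19 alternatives, among them each library left out. Anxa3, an annexin of neutrophil granules named after its values were seen, had 334 and 420 against 168 and 157 CPM (1.21, adjusted p = 0.033).

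Among the lower genes, Smim5 had 12.5 and 12.5 CPM in TLR9-/- and 51.9 and 35.6 in WT (log2 fold change -1.77, adjusted p = 0.0092). Rnf144a, a ubiquitin ligase, had 15.2 and 10.0 against 43.7 and 37.9 CPM (-1.72, adjusted p = 0.011). Gm42031 had 9.69 and 6.74 against 32.6 and 36.2 CPM, and Pafah1b3 18.0 and 13.1 against 65.9 and 41.3. Without cells bearing other-lineage markers both lost the call, with log2 fold changes of -1.15 and -0.97 (adjusted p = 0.44 and 0.97). Pafah1b3 was found in 50.1% to 65.1% of B cells against 5.78% to 13.9% of members.

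Several called genes are markers of other cells. Cd79a, a part of the B cell receptor, had 50.6 and 51.1 against 103 and 120 CPM (log2 fold change -1.14, adjusted p = 0.023), and Vpreb3, of B cell precursors, 71.0 and 34.3 against 174 and 153 (-1.65, adjusted p = 0.033). The alpha globin Hba-a1 had 249 and 229 against 737 and 487 CPM (-1.36, adjusted p = 0.037). Of 8 B cell markers tested 2 fell, and of 7 erythroid markers 1 fell, with list medians of -0.89 and -1.33. Without the cells bearing markers of B, T or erythroid cells, all 3 lost the call. For Cd79a and Hba-a1 this loss was set in advance, since UMIs of these genes themselves chose the cells removed. The log2 fold change left was -1.46 for Cd79a (adjusted p = 0.95), -0.58 for Vpreb3 and -0.65 for Hba-a1 (adjusted p = 1.0 for both). For Cd79a and Hba-a1 the values left rest on the few UMIs that the filter lets through, so nothing is read from them. The cells removed were 25.3% and 19.96% of WT and 13.5% and 12.1% of TLR9-/- members.

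Jchain and Ighv1-81, genes of antibody-secreting cells, passed as higher. For Ighv1-81, 550 of 553 UMIs in TLR9-/- library 1 and 3471 of 3481 in library 2 came from 1 cell each. Jchain (191 and 358 against 75.2 and 102 CPM, log2 fold change 1.62, adjusted p = 0.038) had 473 of 552 and 952 of 1860 UMIs in 1 cell of each TLR9-/- library and 469 of 482 in 1 cell of WT library 2. Without cells with over 10% immunoglobulin UMIs its log2 fold change was -2.87. Cpa3, of mast cells and basophils, passed at 12.5 and 7.90 against 1.75 and 0 CPM (log2 fold change 4.26, adjusted p = 0.048), with 32 of 36 and 34 of 41 UMIs in 1 cell. It was the 1 of 5 basophil, mast cell and eosinophil markers to pass (median 3.07). None of 3 T and NK cell, 9 monocyte, 1 megakaryocyte and 6 dendritic cell markers passed, with medians of 0.58, -0.07, 0.57 and -0.03.

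**Figure D5:**
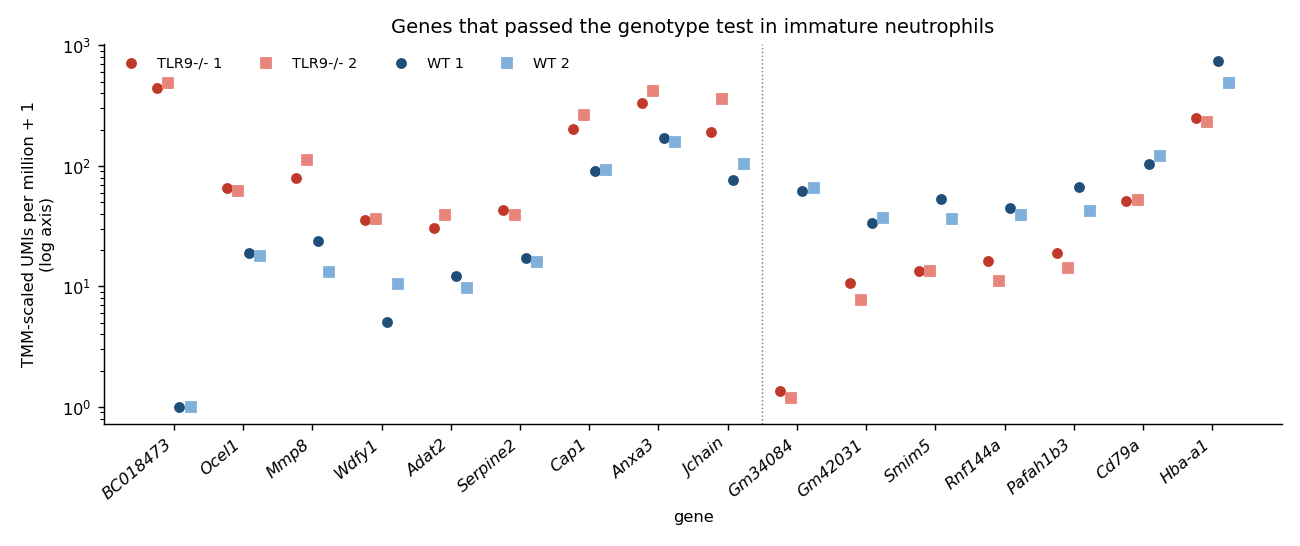
TMM-scaled CPM plus 1 (log axis) of 16 genes in the immature neutrophils of each library, with genes higher in TLR9-/- left of the dotted line and lower genes right of it. BC018473 has 0 UMIs in both WT libraries, and Mmp8 stands at 78.6 and 110 against 22.7 and 12.1.

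Of the 45 genes, 26 also passed without the cells bearing other-lineage markers, where 30 passed in all, and 43 were measured in intermediate neutrophils, all with the same sign of the log2 fold change there. Without TLR9-/- library 2, 8 genes passed, 6 of them among the 45, and without WT library 1, 16 passed, 11 of them shared. The stages come from the same 4 mice and differ in the rule by Retnlg alone, so the agreement in sign is no independent evidence. The share of agreeing signs among all genes tested was not counted. In intermediate neutrophils, 5 genes were higher and 5 lower of 8947 tested. The difference between the stages passed for 11 of 9627 genes (0.114%), and 348 had an unadjusted p under 0.05. Apart from Mmp8, Hba-a1, Thbs1, Slc4a1 and Fabp5, these were antibody gene segments.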

How the data were processed

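Bone marrow mononuclear cells of 2 TLR9-/- and 2 WT mice were profiled, 1 library per mouse. Per the paper this was done in 2 experiments, and each held 1 mouse of either genotype. Per the labels, the authors aligned reads to mm10, with Cell Ranger, STAR and Seurat 2.3.4 listed without roles. The matrix headers name Cell Ranger 3.0.1, and the deposited values are raw UMI counts per gene and called cell. The sources do not tie library numbers to the study's 2 experiments.

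Of 40545 cells, those with 200 to 10000 genes and at most 10% mitochondrial UMIs were kept (39167). The members and gene lists were chosen with earlier results of these data known. Cells are not replicates, so UMIs were summed per library and tested with edgeR 4.0.16 in R 4.3.3 (filterByExpr, TMM, quasi-likelihood test, threshold 0.05). DESeq2 1.42.0 served as an alternative. The scripts were tested on simulated data. Shares were compared with the exact permutation test in scipy 1.17.1, whose smallest p here is 0.33. Thinning drew 1000 UMIs per cell without replacement.

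The genes named were the 20 with the highest ratio to other cells (at least 200 CPM), and for genotype the 10 highest and 10 lowest log2 fold changes at a mean of at least 20 CPM with the same direction in both same-numbered pairs, of which there were 10 and 8. Every passing gene of the 22 lists, up to 4 others per list and Tlr9 were added, as were the 5 most abundant genes of the stage comparison. Positions are from GENCODE M21 (GRCm38) and promoters from RefSeq. The alternatives were other limits of the rule, filters, scalings, tools and each library left out.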

Additional observations from a re-analysis of the deposited data

Results flagged for a closer look

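The difference between genotypes was not the same in immature and intermediate neutrophils for 5 abundant genes, by edgeR's test of genotype by stage over 9627 genes. For Mmp8 the log2 fold change was 2.29 higher in immature cells (adjusted p = 2.1e-05). For Hba-a1 it was 1.33 higher (adjusted p = 0.041), with 241 and 224 CPM in TLR9-/- and 704 and 457 in WT immature cells, and 96.9 and 203 against 1154 and 693 in intermediate cells. Both groups of Hba-a1 values lay apart in each stage.

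The other 3 were antibody genes, whose members are alike in sequence. Igkv9-120 differed by 8.59 (adjusted p = 0.041), with 3 and 8928 UMIs in TLR9-/- and 0 and 17 in WT immature cells, 8881 of them in 1 cell of TLR9-/- library 2. Igkv3-2 differed by -7.30 (adjusted p = 0.00012), with 2 and 0 UMIs in TLR9-/- against 400 and 0 in WT, at most 94 of them in 1 cell. Ighg2b differed by -8.88 (adjusted p = 0.0053), with 2 and 1 UMIs in TLR9-/- against 3 and 1118 in WT, of which 1117 were in 1 cell.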

How the results depend on the processing

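Of the genes named by the rule, Jchain reversed its sign (1.62 to -2.87 without immunoglobulin-rich cells and -0.55 at 5% Camp and Ngp, both alternatives chosen after seeing the data). The cause was not tested. The 24 higher and 21 lower genes became 8 and 4 with cells thinned to 1000 UMIs, 81 and 97 with no filter on low counts, and 13 lower without cells bearing other-lineage markers. The same-numbered libraries deviated together (r = 0.41 across 3806 genes), but the labels do not link a number to an experiment. With the replicate block 166 were higher and 168 lower, including all 45. Leaving out 1 library gave 6 to 17 higher and 2 to 25 lower genes. DESeq2 called 33, of which 31 were shared.

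The stage comparison called 35 genes without the filter, 2 with the replicate block in place of the library, and 19 to 68 without 1 library. The difference in the share of immature neutrophils (0.872 percentage points) was -5.21 of the 3 neutrophil stages, and -0.401 to 2.15 without 1 library. The cycling difference (-2.79) turned to 1.20 at 5% S100a8 and S100a9, 1.35 without other-lineage cells and 1.61 at 5% Camp and Ngp (chosen after seeing the data), and ran from -6.97 to 1.39 without 1 library.

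Differences in list shares, in percentage points, also turned. Over all UMIs they were -0.00630 for S phase, -0.000427 for Toll-like receptor and -9.36e-05 for NF-kappaB genes. After thinning they were -0.0267 for S phase and -0.00412 for progenitor genes. At 5% Camp and Ngp they were -0.00146 for progenitor, -0.00138 for Toll-like receptor and -0.000113 for endoplasmic reticulum genes. Without 1 library they ran from -0.297 to 0.936 for primary granule, -0.00789 to 0.0497 for maturation, -0.0113 to 0.0122 for S phase, -0.000273 to 0.0185 for progenitor, -0.00130 to 0.00252 for Toll-like receptor, -0.0974 to 0.0470 for interferon, -0.00232 to 0.00469 for NF-kappaB, -0.00857 to 0.0424 for early response, -0.0238 to 0.0444 for heat shock and -0.00376 to 0.105 for endoplasmic reticulum genes.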
